A study of Mus musculus with 8 samples.

Results

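The genes described here are the mouse receptors for the constant region of IgG and the chain that signals for them: Fcgr1, Fcgr3, Fcgr4, Fcgr2b and Fcer1g. They were chosen by name, and all 5 were among the 770 genes of the deposited table. RNA of mouse lymph nodes was counted on the NanoString mouse PanCancer Immune panel, in which a barcoded probe binds each transcript and is counted without amplification. Of the 8 libraries, 4 carry the label tumor-free and 4 the label tumor-bearing, and by the series description the second label stands for nodes that Eµ-myc lymphoma cells had reached through the lymphatics. In Eµ-myc mice the immunoglobulin heavy-chain enhancer drives a Myc transgene in B-lineage cells, which become malignant. The sources used here do not give strain, age, sex or treatment, nor how and when the tumor cells were transferred. Nothing in the labels says whether each node is from its own mouse, so the p-values below measure the spread between these libraries, which may be technical.

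Fc gamma receptors bind antibody that has coated a target and so link antibodies to phagocytosis, killing and cytokine release. In the mouse, the products of Fcgr1, Fcgr3 and Fcgr4 activate the cell and signal through the immunoreceptor tyrosine-based activation motif of the common gamma chain, which Fcer1g encodes. The product of Fcgr2b carries an inhibitory motif instead. It is the Fc gamma receptor of B cells, where it restrains the antigen receptor, and it is also made by macrophages and other myeloid cells, in which it opposes the activating receptors.

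The values of each library rise in steps of 0.822 to 1.29, and in these steps a library sums to between 659771 and 819257. The steps are taken here as counts. That reading is an inference, since the smallest value was a single step in 1 of the 8 libraries only and the other steps were found by a search over fractions of it. Intervals from such counts cover counting error only. Before the members are described, the labels need a remark. Myc, the oncogene of this lymphoma, had values of 29389, 31449, 9249.5 and 33147 in replicates 1 to 4 labelled tumor-free and of 2996 to 3281 in those labelled tumor-bearing. Its level thus goes against the labels, and every direction below depends on them. Replicate 3 labelled tumor-free stood apart from its group, with the lowest Myc and the highest Cd3e, a T cell receptor subunit gene (2947 against 477 to 1291 in its group and 3553 to 3641 in the libraries labelled tumor-bearing). Macrophage and B cell genes were present in all libraries: the lowest values were 182 for Csf1r, the receptor for the macrophage growth factor, and 1671 for Ms4a1, which encodes the B cell antigen CD20.

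Fcgr1, Fcgr4 and Fcgr2b were lower in the libraries labelled tumor-bearing. Their fitted levels were 3.36-fold, 2.71-fold and 3.34-fold lower. Fcgr3 and Fcer1g did not pass the test. The 3 called members were therefore the inhibitory receptor and a pair of activating receptors, and 0 of 5 members were called higher. Across the panel, limma called 10.7% of the 609 tested genes lower and 27.6% higher at an adjusted p of 0.05. In each of the 3 called members the 4 values labelled tumor-bearing lay below all 4 labelled tumor-free, an arrangement seen in 10.2% of the tested genes. The median log2 difference was -1.44 over the 5 members and 0.36 over all tested genes. Counted from the most negative of the 609 differences, Fcgr1 ranked 18, Fcgr2b 19, Fcgr4 28, Fcer1g 123 and Fcgr3 138. All 5 members passed the filter on low values, and all were at 20 or more in all 8 libraries. In RNA of whole nodes, fewer cells of a type and less RNA per cell cannot be told apart.

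**Figure D1:**
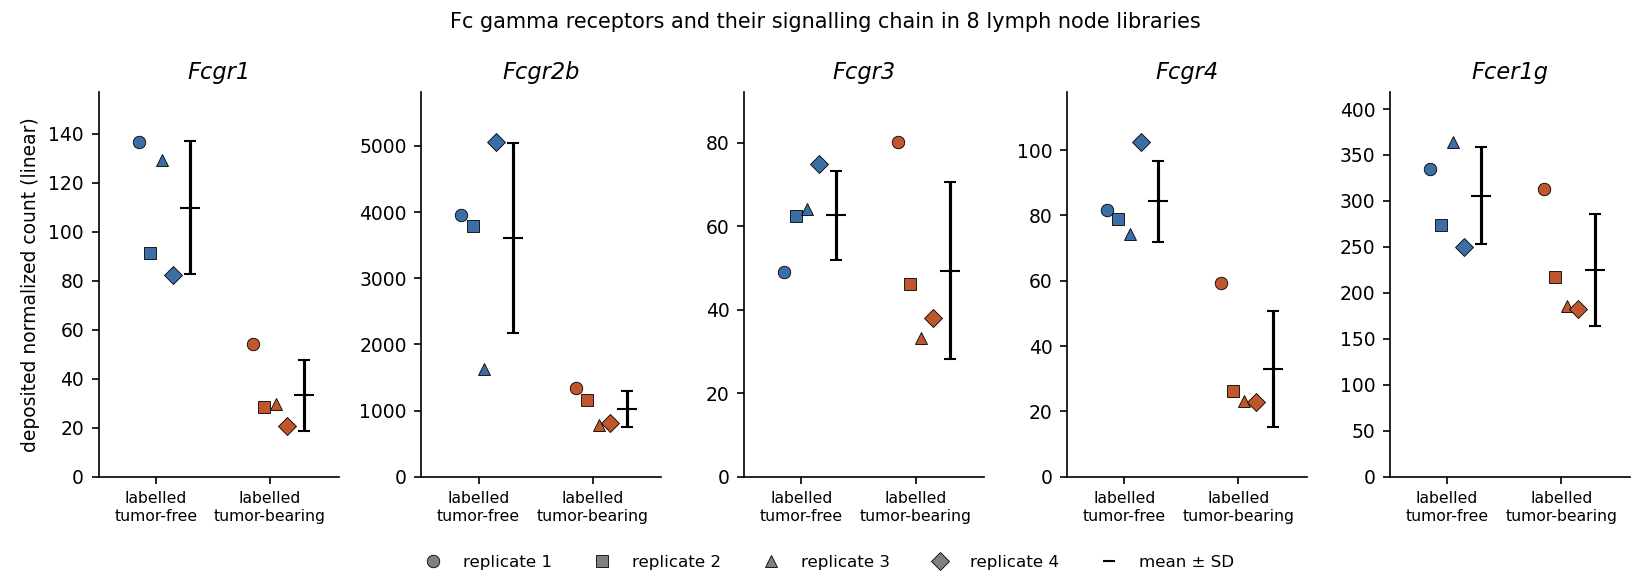
Deposited normalized counts of the 5 genes in each library, on a linear axis from 0, with the mean and SD of each labelled group (n = 4). The groups are apart for Fcgr1, Fcgr4 and Fcgr2b and overlap for Fcgr3 and Fcer1g.

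The promoter windows of the 3 called members are shown because their levels were lower together. Fcgr1 is on chromosome 3, whereas the other 4 are on chromosome 1, where Fcgr2b, Fcgr4 and Fcgr3 follow each other with 0 protein-coding genes between them and 7 lie between Fcgr3 and Fcer1g. Each window runs from 250 bases before to 50 bases after the gene's start and is taken from RefSeq on GRCm38.p6, 5′ to 3′ along the gene. The windows are chr3:96293920-96294219 on the minus strand for Fcgr1, chr1:171018676-171018975 on the plus strand for Fcgr4 and chr1:170976022-170976321 on the minus strand for Fcgr2b. Capitals mark matches to the motifs searched.
Fcgr1: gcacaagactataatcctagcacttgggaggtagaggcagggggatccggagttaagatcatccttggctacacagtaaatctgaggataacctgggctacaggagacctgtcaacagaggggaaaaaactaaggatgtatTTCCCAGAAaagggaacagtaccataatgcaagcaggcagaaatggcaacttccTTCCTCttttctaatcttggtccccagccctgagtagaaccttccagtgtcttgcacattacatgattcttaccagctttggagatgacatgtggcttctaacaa
Fcgr4: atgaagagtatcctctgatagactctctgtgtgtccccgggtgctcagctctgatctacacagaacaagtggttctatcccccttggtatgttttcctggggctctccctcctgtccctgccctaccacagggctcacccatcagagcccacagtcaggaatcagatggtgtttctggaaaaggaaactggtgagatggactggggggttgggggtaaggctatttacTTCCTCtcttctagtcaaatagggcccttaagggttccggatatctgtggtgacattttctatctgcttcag
Fcgr2b: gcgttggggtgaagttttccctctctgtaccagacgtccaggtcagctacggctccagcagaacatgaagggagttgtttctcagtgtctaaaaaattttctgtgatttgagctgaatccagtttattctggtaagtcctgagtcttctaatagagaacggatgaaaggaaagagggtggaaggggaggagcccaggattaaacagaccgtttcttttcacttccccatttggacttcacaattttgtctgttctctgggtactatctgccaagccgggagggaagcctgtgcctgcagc
The motifs were the gamma-activated site TTCNNNGAA, an element of genes that interferon gamma induces, the PU.1 core GAGGAA, bound by a factor of myeloid and B cells, and the E-box CACGTG, bound by Myc with Max. All were read on both strands, and no matches overlapped. The Fcgr1 window held a gamma-activated site, TTCCCAGAA, that begins 109 bases before the start. It also held TTCCTC, the PU.1 core on the opposite strand, 55 bases before the start. The Fcgr4 window held TTCCTC 22 bases before the start, and the Fcgr2b window held none of the 3 motifs. Among the 5 members, 1 had a gamma-activated site in its window, 3 had the PU.1 core and 0 the E-box, where the 2 overlapping windows of Fcgr3 share a single TTCCTC. The shares among 32544 promoter windows of the same length were 8.33%, 28.1% and 7.17%. These are matches of letters, and binding was not measured.

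Fcgr1 encodes the high-affinity IgG receptor of macrophages and monocytes. Its values were 137, 91.2, 129 and 82.5 in replicates 1 to 4 labelled tumor-free and 54.3, 28.5, 29.65 and 20.65 in those labelled tumor-bearing. The highest value labelled tumor-bearing, that of replicate 1, lay below the lowest one labelled tumor-free. Mean levels were 110 ± 27.1 (SD, n = 4) and 33.3 ± 14.6 (SD, n = 4). The log2 difference was -1.75 (SE 0.33, 95% CI -2.49 to -1.01, limma adjusted p = 0.0173). Replicate 4 labelled tumor-bearing gave the lowest reading of any member, which equals 19 steps of its library (as counts, exact Poisson 95% interval 11.4 to 29.7).

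Fcgr4 encodes the mouse receptor that binds IgG2a and IgG2b with intermediate affinity and is made by monocytes, macrophages and neutrophils. It read 81.8, 78.9, 74.4 and 102 in replicates 1 to 4 labelled tumor-free, a narrow range. In the libraries labelled tumor-bearing it read 59.5, 26.3, 23.2 and 22.8. Replicate 1 of that group was far above its fellows, yet still below every library labelled tumor-free. Means were 84.4 ± 12.4 (SD, n = 4) and 32.95 ± 17.8 (SD, n = 4). Its log2 difference was -1.44 (SE 0.33, 95% CI -2.19 to -0.69, limma adjusted p = 0.0233).

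Fcgr3, the low-affinity activating receptor of macrophages, neutrophils and natural killer cells, overlapped between the groups. Its values were 49.1, 62.45, 64.2 and 74.9 without the tumor label and 80.15, 46.1, 33.4 and 38.0 with it. The highest of all 8 values was that of replicate 1 labelled tumor-bearing, while the other libraries of that group lay below every library labelled tumor-free. Means were 62.7 ± 10.6 (SD, n = 4) and 49.4 ± 21.2 (SD, n = 4). The log2 difference of -0.40 (SE 0.31, 95% CI -1.10 to 0.29) did not pass the test (limma adjusted p = 0.298), and its interval still holds a 2.14-fold lower level.

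Fcer1g encodes the common gamma chain, without which the activating receptors do not signal and are poorly held at the cell surface. It read 335, 274, 364 and 250.4 in the libraries labelled tumor-free and 313, 217, 186 and 183 in those labelled tumor-bearing. Here replicate 1 labelled tumor-bearing was within the range of the other group and the remaining libraries were below that range. Means were 306 ± 52.7 (SD, n = 4) and 225 ± 60.8 (SD, n = 4). The log2 difference was -0.46 (SE 0.25, 95% CI -1.01 to 0.09, limma adjusted p = 0.15).

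Fcgr2b, the inhibitory receptor, read 3964.5, 3786, 1624 and 5057 in replicates 1 to 4 labelled tumor-free. In the libraries labelled tumor-bearing it read 1341, 1160.2, 778 and 812. The groups were apart, and the lowest value labelled tumor-free came from replicate 3, the library that stood apart in Myc and Cd3e. Means were 3608 ± 1437 (SD, n = 4) and 1023 ± 273 (SD, n = 4). Its log2 difference was -1.74 (SE 0.35, 95% CI -2.52 to -0.96, limma adjusted p = 0.018). Without replicate 3 labelled tumor-free the difference was -2.09 (limma adjusted p = 0.000132).

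**Figure D2:**
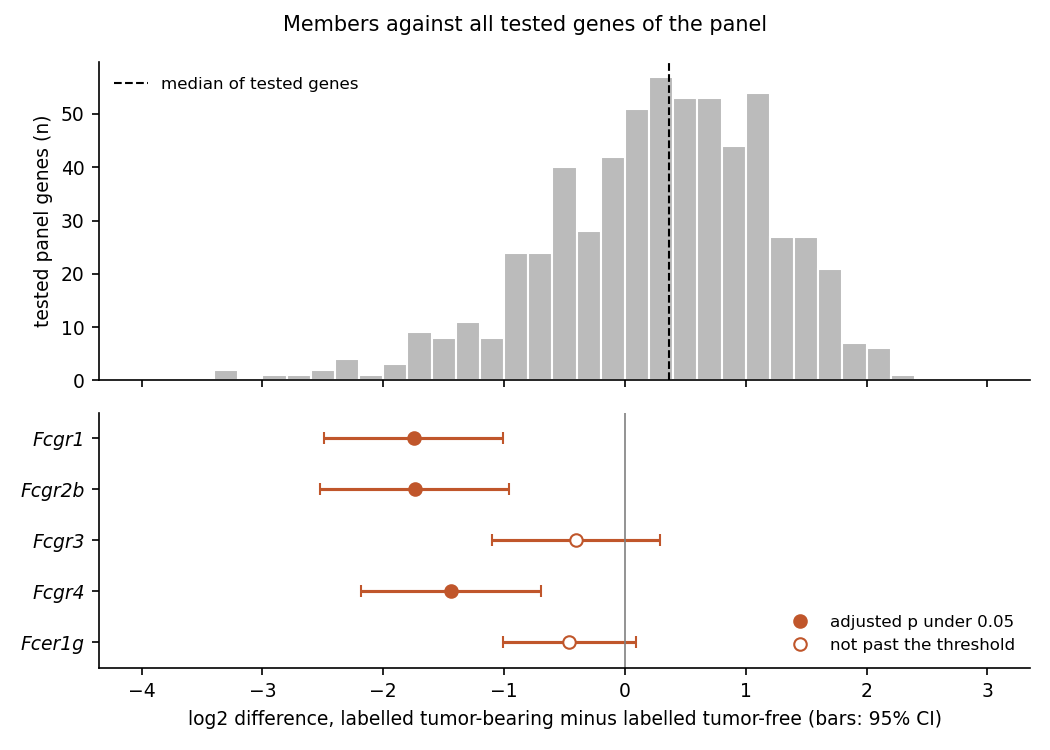
Upper panel, the number of tested genes (n = 609) by log2 difference, labelled tumor-bearing minus labelled tumor-free, with the median of 0.36 as a dashed line. Lower panel, the same difference for the 5 genes with 95% confidence intervals, filled where the adjusted p was under 0.05; the intervals of Fcgr3 and Fcer1g cross 0.

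The calls of Fcgr1, Fcgr4 and Fcgr2b depended on which libraries were used. They held in 3 of the 8 fits that left out 1 library, those without replicate 3 or 4 labelled tumor-free or replicate 1 labelled tumor-bearing. In the other 5 fits the limma adjusted p of these genes was between 0.0508 and 0.0761, and their unadjusted limma p between 0.00098 and 0.0065. The whole panel lost calls in these 5 fits, with 0 to 11 genes lower and 0 to 1 higher, against 65 and 168 with all libraries. The log2 differences over the 8 fits were -2.01 to -1.56 for Fcgr1, -1.76 to -1.31 for Fcgr4 and -2.09 to -1.54 for Fcgr2b. Replicate 1 labelled tumor-bearing was the highest of its group for all 5 members as deposited and for 4 of 5 after scaling every library to the same total.

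The scaling of the libraries moved the whole panel, so the members were also set against its median. The panel's median log2 difference was 0.36 as deposited, 0.91 when scaled on the reference genes, 0.12 at the same median, 0.08 after quantile normalization and 0.22 at the same total. Relative to that median, and over these 5 scalings, Fcgr1 lay at -2.12 to -2.06, Fcgr4 at -1.81 to -1.76 and Fcgr2b at -2.11 to -2.03. One factor per library moves a gene and the median alike, so these ranges are narrow by construction except for quantile normalization. The 3 genes were called lower under each scaling. Fcer1g lay at -0.94 to -0.82 and Fcgr3 at -0.78 to -0.62 relative to the median. Scaled on the reference genes, which moves all genes upward, their own log2 differences were 0.082 and 0.13, and neither passed the test. Under the 3 remaining scalings Fcer1g was called lower, at -0.70 (limma adjusted p = 0.0129), -0.86 (0.0115) and -0.61 (0.0218) in the order given above, whereas Fcgr3 was not called. The call of Fcer1g thus depends on the scaling.

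**Figure D3:**
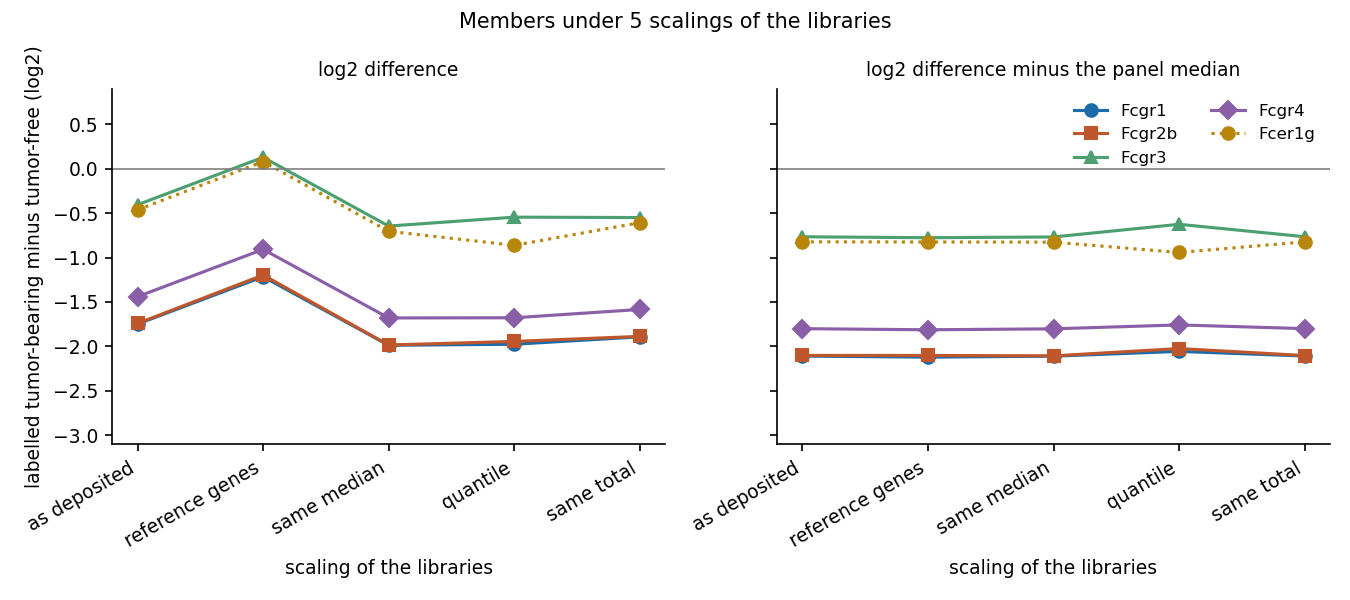
Log2 difference of the 5 genes, labelled tumor-bearing minus labelled tumor-free, under 5 scalings of the libraries, as fitted (left) and relative to the panel's median (right). In the left panel Fcer1g moves from -0.86 to 0.082; the right panel is nearly level by construction, since 1 factor per library moves a gene and the median alike.

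A single factor per library leaves ratios within it almost unmoved, and 9 were compared with an exact two-sided permutation test, whose smallest p for 4 against 4 libraries is 0.0286. The genes of activating and inhibitory receptors were compared as log2 of Fcgr1, Fcgr3 or Fcgr4 minus log2 of Fcgr2b. In RNA of whole nodes such a ratio can mix cell types and does not give the balance within a cell. For Fcgr3 it differed by 1.34 (SE 0.39) and was higher in the libraries labelled tumor-bearing, a 2.53-fold shift (exact p = 0.0286, adjusted 0.0643 over the 9). The groups were apart by a narrow margin, -4.64 against -4.62 at their nearest libraries, and overlapped after quantile normalization (exact p = 0.0571, adjusted 0.103). For Fcgr1 it differed by -0.01 (SE 0.52, exact p = 1), and for Fcgr4 by 0.30 (SE 0.35, exact p = 0.4, adjusted 0.6). Fcer1g minus Fcgr2b differed by 1.28 (SE 0.47, exact p = 0.0571, adjusted 0.103). None of the 9 passed 0.05 after adjustment, while 4 reached the smallest p the design allows. With 4 of 9 at that p the adjusted value is 0.0643, so failing the adjusted threshold says little here.

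The activating receptors and the chain were also set against the mean log2 level of 13 macrophage and monocyte genes in the same library. That mean was 6.80 to 7.05 without the tumor label and 6.22 to 6.89 with it. Against it, Fcgr1 differed by -1.32 (SE 0.29) and Fcgr4 by -1.01 (SE 0.23), each with no overlap between the groups (exact permutation p = 0.0286, adjusted 0.0643). Fcgr3 differed by 0.03 (SE 0.16, exact p = 0.8286) and Fcer1g by -0.03 (SE 0.17, exact p = 0.857), and in both the groups overlapped.

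Fcgr2b was set against the mean log2 level of 11 B cell genes. The ratio was 2.02, 2.26, 0.57 and 2.68 in replicates 1 to 4 labelled tumor-free and -0.03, -0.02, -0.13 and 0.05 in those labelled tumor-bearing. The second group was tight, and replicate 3 labelled tumor-free was the closest to it. The difference was -1.91 (SE 0.46, exact permutation p = 0.0286, adjusted 0.0643). The B cell mean itself ranged from 9.63 to 10.10 without the tumor label and from 9.62 to 10.42 with it.

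**Figure D4:**
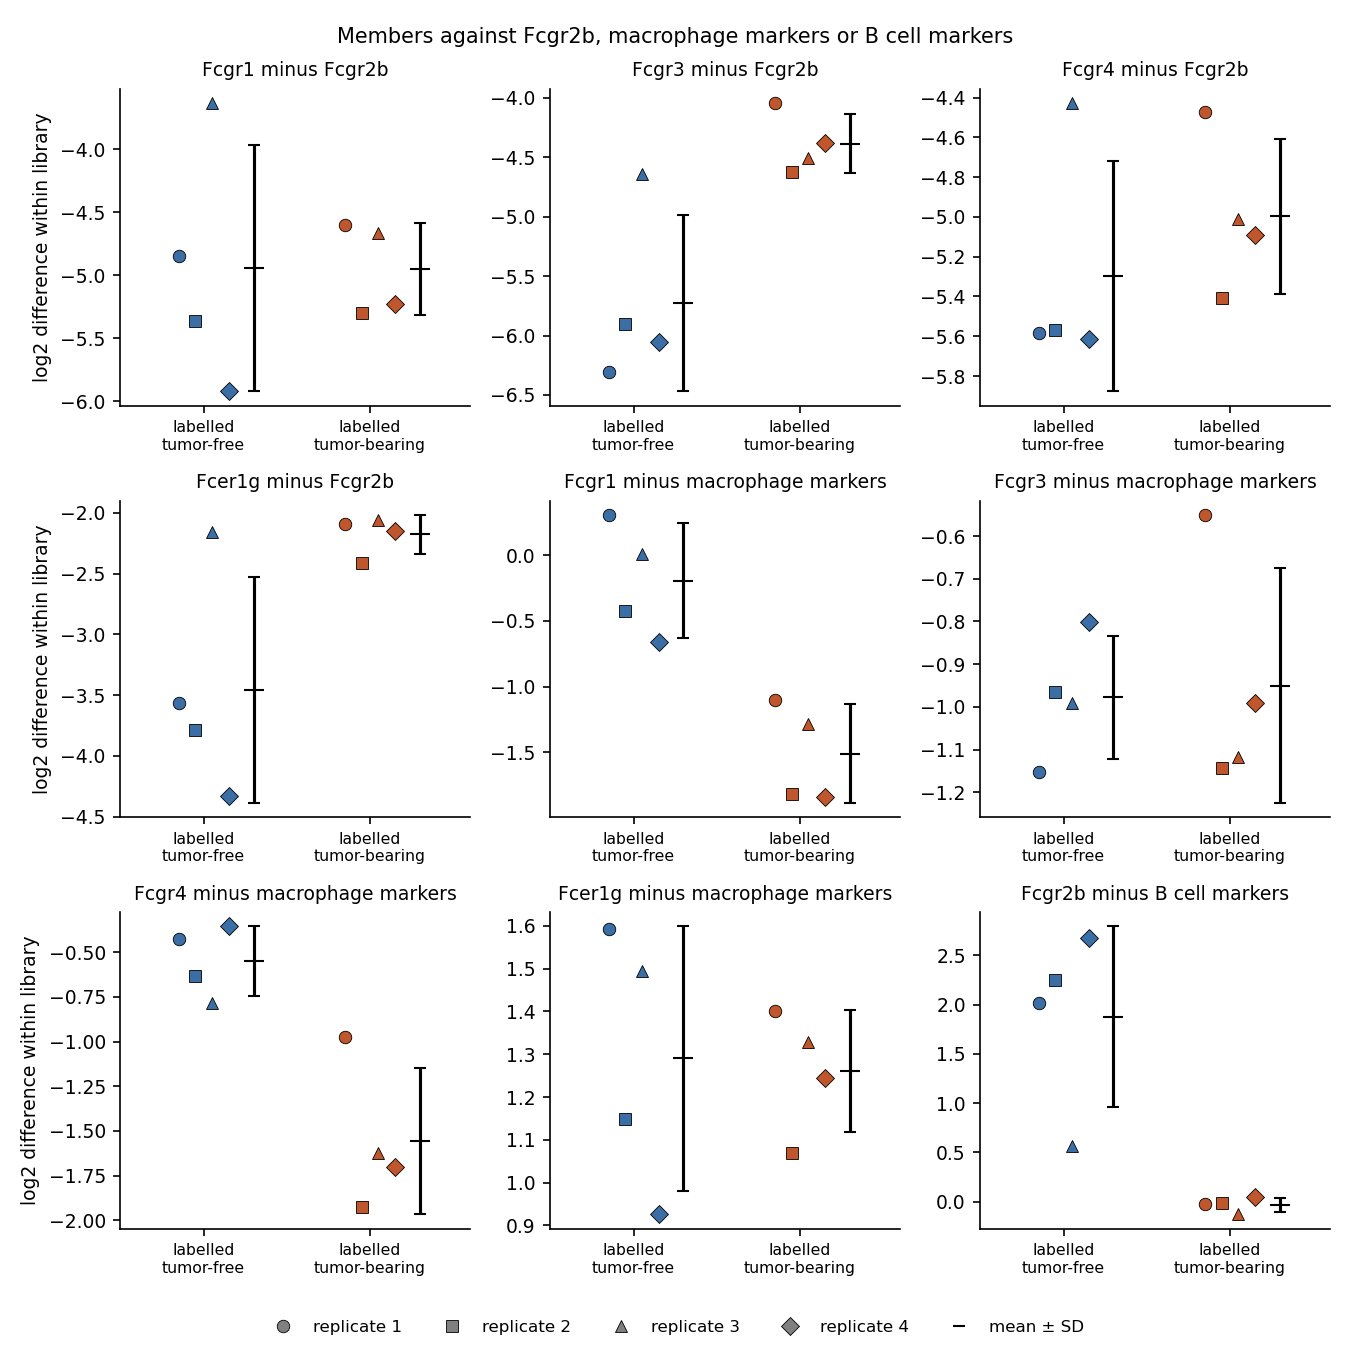
The 9 within-library log2 ratios in each library, with the mean and SD of each labelled group (n = 4). The groups do not overlap for Fcgr3 minus Fcgr2b, for Fcgr1 and Fcgr4 minus the macrophage genes, and for Fcgr2b minus the B cell genes, where the libraries labelled tumor-bearing lie between -0.13 and 0.05.

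Profiles over the 8 libraries were compared as the root mean square distance between log2 values, each gene centred on its own mean. The points share their libraries and scaling, so the distances are descriptions. Fcgr3 and Fcer1g were the closest pair of members at 0.300, followed by Fcgr1 and Fcgr4 at 0.378, and Fcgr2b and Fcer1g were the farthest apart at 0.861. The other genes nearest to Fcgr1 were Fpr2, a formyl peptide receptor (0.232), Il1rn, the interleukin-1 receptor antagonist (0.317), and Marco, a scavenger receptor of macrophages (0.366). Those nearest to Fcgr4 were Clec4n, which encodes the lectin dectin-2 (0.168), Msr1, another scavenger receptor (0.244), and Fpr2 (0.303). Fpr2 was low in the libraries labelled tumor-bearing, at 9.78 to 25.9. Nearest to Fcgr3 were Cd68 (0.212) and Xbp1 (0.220), and nearest to Fcer1g were Cybb, the NADPH oxidase subunit of phagocytes (0.170), Axl (0.173) and Litaf (0.187). Fcgr2b was nearest to Blnk, the B cell linker (0.118), Hmgb1 (0.183) and Pou2af1, a B cell coactivator (0.207).

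**Figure D5:**
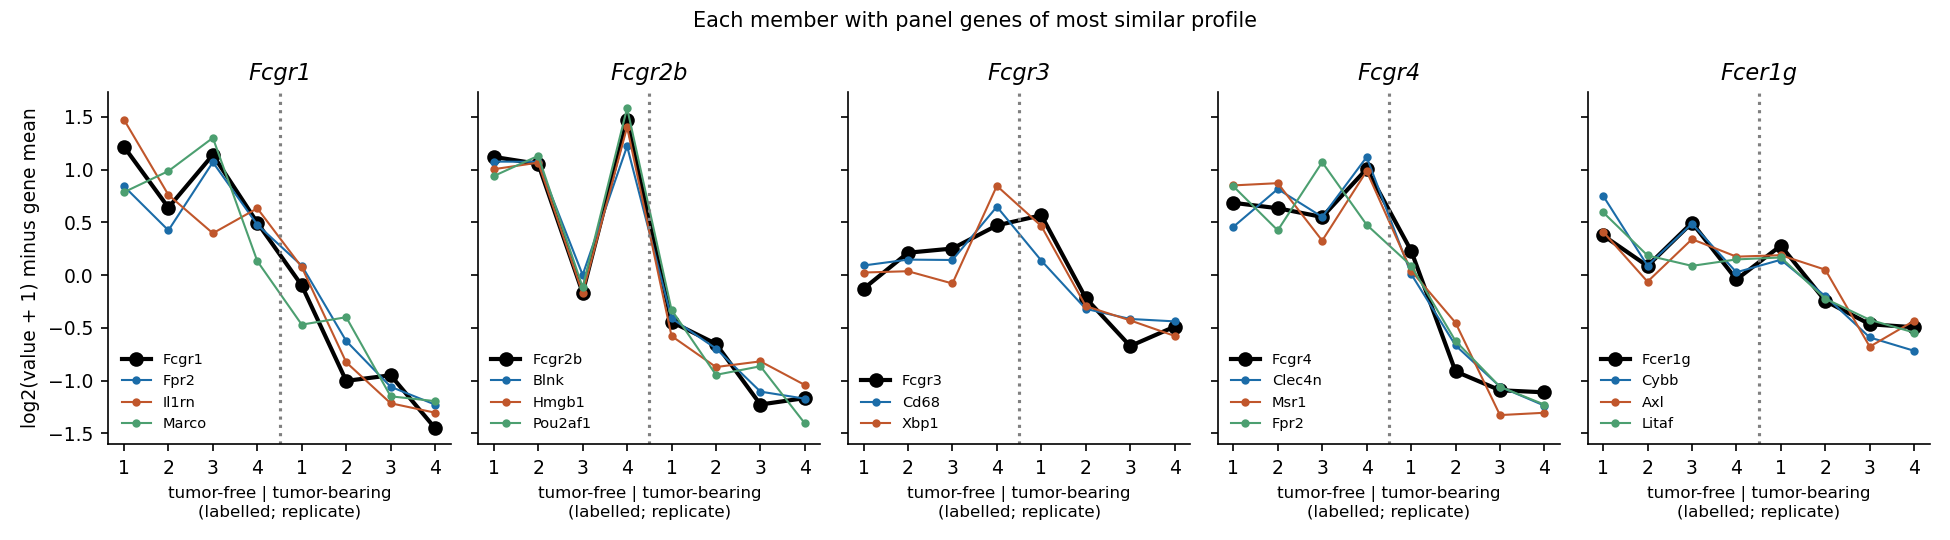
Log2 values of each of the 5 genes and its nearest genes (2 for Fcgr3, 3 for the others) over the 8 libraries, each centred on its own mean. Fcgr2b and Blnk, 0.118 apart, share the drop of replicate 3 labelled tumor-free.

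Downstream of the activating receptors, 9 of 10 measured signalling genes were tested and 3 were called lower and 2 higher, beside 10.7% and 27.6% of the panel. The median was -0.16. Scaled on the reference genes, 2 were lower and 4 higher with a median of 0.39. The panel then had 38 of 609 genes lower, 363 higher and a median of 0.91, and Btk lost its call (-0.39, limma adjusted p = 0.0929). As deposited, those lower were Syk, the kinase that docks on the phosphorylated gamma chain (-0.998), Btk (-0.94) and Blnk (-1.69). Blnk was also counted among the B cell genes. Higher were Fyn (1.14), a Src-family kinase, and Pik3cd (0.83), a catalytic subunit of phosphoinositide 3-kinase. Downstream of Fcgr2b, Inpp5d, the phosphatase SHIP1 that it recruits, differed by 0.23 (limma adjusted p = 0.295). It was called higher when scaled on the reference genes (0.77, limma adjusted p = 0.0163) and with sample weights (0.35, 0.0122), and lay at -0.27 after quantile normalization (0.262). Of the other Fc receptor genes only Fcer2a, the low-affinity IgE receptor CD23 of B cells, passed the filter, and it was called higher (1.58).

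Among 17 tested genes of the interferon gamma pathway, which induces Fcgr1 in macrophages, 0 were called lower and 3 higher, Jak1 (0.98), Ciita (0.80) and Jak2 (0.73), where 27.6% of the panel was called higher. The list's median was 0.50 beside 0.36 for the panel. The count higher was 12 of 17 when scaled on the reference genes and with sample weights, where the panel had 363 and 296 of 609 higher. A replicate block, sample weights, quantile normalization, the same median and the same total each gave 1 gene of the list lower. The list then had 4, 12, 2, 4 and 3 higher in that order, and the panel had 65, 143, 118, 103 and 109 lower. Cxcl10, an induced chemokine, differed by -1.89 (limma adjusted p = 0.0746). Of 11 opsonins and complement receptors, the other system that marks targets for uptake, 0 were lower and 2 higher, Cr2 (1.72) and Itgb2 (1.03), with a median of -0.06. Scaled on the reference genes 0 were lower and 4 higher, and after quantile normalization 4 were lower and 2 higher. The panel had 38 lower and 363 higher of 609 in the first and 118 and 178 in the second.

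Markers of the cells that carry these receptors are given beside the calls, and their part in the results was not tested. Of 13 tested macrophage and monocyte genes 4 were called lower, Marco (-1.60), Msr1 (-1.52), Emr1 (-0.91) and Csf1r (-0.73), and 0 higher, with a median of -0.52. Scaled on the reference genes 2 were lower and 2 higher with a median of 0.03, where the panel's median was 0.91. The panel then had 38 of 609 genes lower and 363 higher. Csf1r (-0.19, limma adjusted p = 0.418) and Emr1 (-0.37, 0.158) lost their calls. With a replicate block 2 were lower and 1 higher (limma adjusted p = 0.0573 for Csf1r and 0.0514 for Emr1). At the same median 7 were lower and 1 higher, and with sample weights likewise 7 and 1. After quantile normalization 6 were lower and 0 higher, and at the same total 6 and 1. Panel genes called lower numbered 103, 143, 118 and 109 of 609 in that order, against 65 as deposited. The summed level of the list's 14 measured genes was 4763 to 6630 in the libraries labelled tumor-free and 4082 to 6695 in those labelled tumor-bearing. Most of it was Lyz2, the lysozyme gene of myeloid cells, with means of 3474 and 3653. Without Lyz2, a choice made after seeing the data, the sums were 1769 to 2264 and 1237 to 1841. Of 5 tested neutrophil genes 1 was lower, Fpr2 (-1.41), and sums over all 10 measured were 258 to 481 and 196 to 349. Of 8 natural killer genes 2 were higher, Klrd1 (1.69) and Cd160 (1.502), close to the panel's share. The count was 7 when scaled on the reference genes, where 363 of 609 panel genes were higher. It was 5 at the same median, after quantile normalization and with a replicate block, where the panel had 182, 178 and 173. At the same total it was 4 and with sample weights 8, where the panel had 187 and 296. Sums of the 9 measured natural killer genes were 900 to 4492 and 4050.1 to 8154. For Fcgr2b, 11 B cell genes gave sums of 18506 to 22730.3 and 16282 to 28809, with 2 lower, Pou2af1 (-1.77) and Blnk, and 3 higher, Cr2, Fcer2a and Blk (1.17). None of the defining genes Cd68, Csf1r, Emr1, Itgam, Ms4a1, Ncr1 and S100a8 was at 0 in any library. The smallest value of a library was 1.09 to 3.88, so no panel gene was at 0. The absence of zeros thus does not show that a cell type was present.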

How the data were processed

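The authors deposited 1 normalized count per gene and library, a linear signal. The sources used here do not give its software, background step or scaling genes. Per the labels' protocols, RNA was purified on columns with a DNase step. In every library 100% of values lay within 0.1 of a whole multiple of 1 step. The multiples, read as counts, entered no test. Genes at 20 or more in at least 4 libraries were kept, 609 of 770. On the log2(value + 1) scale, limma 3.58.1 (R 4.3.3) was fitted to all 8 libraries with the group as its term and a trended prior. Its two-sided p-values were adjusted by Benjamini-Hochberg across the 609 genes, and those under 0.05 were called. Such fold changes understate the change of low genes. The 9 within-library ratios were tested by exact permutation (scipy 1.17.1) and adjusted over the 9.

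The members, the 15 lists of other genes and the tests were chosen with earlier results of these data known. Genes named are the 5 members, up to 2 genes of a list by size of difference with called ones first, defining markers, the 3 nearest profiles per member (2 for Fcgr3), and called genes of a list where 5 or fewer were called in a direction. Some genes that this rule takes are left out of the text and remain in the fits and lists. Cell lists not set beside the receptors are given in the closing section. Alternatives were 4 other scalings, 2 pseudocounts, 2 filters, 3 forms of limma, a replicate block and leaving out each library. RefSeq (GRCm38.p6) promoter windows were found for 5 of 5 members.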

Additional observations from a re-analysis of the deposited data

Results flagged for a closer look

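In 28 sets of 4 libraries (5 members and 9 ratios in each labelled group), the gap between the most extreme library and its nearest neighbour was compared with the range of the set. It stood out in 2 sets, where chance gives about 1 in 20. Fcgr4 in replicate 1 labelled tumor-bearing was 59.47, and the gap took up 0.904 of the range of its group. The log2 ratio of Fcgr4 to Fcgr2b in replicate 3 labelled tumor-free was -4.43, the highest of its group, and the gap took up 0.962 of the range.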

How the results depend on the processing

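Fcgr1, Fcgr4 and Fcgr2b kept their direction and call under each other scaling, pseudocount, limma form and filter that tested them. With a filter at 100 only Fcgr2b and Fcer1g were tested and 1 member was called lower. Scaled on the reference genes, Fcgr3 was 0.13 and Fcer1g 0.082. Fcer1g passed the threshold at the same median (-0.70), after quantile normalization (-0.86), at the same total (-0.61) and with sample weights (-0.56). Fcgr3 passed it with sample weights (-0.68), where 5 members were called lower. Panel genes called lower numbered 38 on the reference genes, 103 at the same median, 118 after quantile normalization, 109 at the same total and 143 with sample weights, against 65. Those called higher were 363, 182, 178, 187 and 296, against 168. With a pseudocount of 10, Fcgr1 minus Fcgr2b was 0.24, and with 4 defining markers alone Fcer1g minus the macrophage genes was 0.22. Against those markers Fcgr1 differed by -1.07, Fcgr4 by -0.76 and Fcgr3 by 0.28, beside -1.32, -1.01 and 0.03 with all 13 genes. The cause was not tested. Leaving out 1 library, the members called ranged from 0 to 3, panel genes lower from 0 to 93 and higher from 0 to 263. Without replicate 3 labelled tumor-bearing limma called 0 genes, with 66 lower and 217 higher at an unadjusted p of 0.05. Log2 differences ranged from -2.01 to -1.56 for Fcgr1, -2.09 to -1.54 for Fcgr2b, -0.66 to -0.25 for Fcgr3, -1.76 to -1.31 for Fcgr4 and -0.63 to -0.37 for Fcer1g. Ratios to Fcgr2b ranged from -0.33 to 0.43 for Fcgr1, 1.14 to 1.70 for Fcgr3, 0.13 to 0.59 for Fcgr4 and 0.99 to 1.72 for Fcer1g, with no test. Those to the macrophage genes ranged from -1.47 to -1.15 for Fcgr1, -0.11 to 0.09 for Fcgr3, -1.20 to -0.88 for Fcgr4 and -0.15 to 0.07 for Fcer1g, and Fcgr2b to the B cell genes from -2.35 to -1.65. Libraries with the same replicate number correlated from -0.04 to 0.55 in their deviations from the group means, the highest for replicate 1. With 4 libraries per group these values cannot decide whether the numbers pair them. With a replicate block the limma adjusted p was 0.00506 for Fcgr1, 0.00188 for Fcgr2b, 0.0112 for Fcgr4, 0.408 for Fcgr3 and 0.227 for Fcer1g, the same calls, with 65 panel genes lower and 173 higher. Count models planned for recovered counts were not run, since the check of whole counts that they require accepted 1 of the 8 columns.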

Other observations

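Lists of other cells and of reference genes gave these counts in the same limma fit, beside 10.7% lower and 27.6% higher over the panel. All 10 T cell genes were called higher in the libraries labelled tumor-bearing, with a median of 1.62, and their summed level was 6322 to 35505 against 39745 to 46983. Dendritic cell genes gave 3 higher of 5 tested, Itgae (2.17), Xcr1 (1.01) and Ccr7 (0.95). Follicular dendritic cell genes gave 1 of 4, Cr2, and endothelial genes 1 of 4, Pecam1 (0.66), both near the panel's share. Cr2 was also counted among the B cell genes and the complement receptors. Of 2 mast cell genes 0 were called. Of 20 reference genes 8 were called lower and 0 higher, with a median of -0.51.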
